A study of Mus musculus with 18 samples.

Results

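Amh and Amhr2, the gene of anti-Müllerian hormone and the gene of its own receptor, were picked by name from the deposited ovary libraries, as 2 of the 30172 genes in the files. The libraries came from whole ovaries of wild-type C57BL/6J F1 females whose dams ate normal chow (F1-Control) or chow raised to 3% methionine (F1-HHcy). Ovaries were taken on postnatal day 3, 7 or 21 (Pd3, Pd7, Pd21), and each of the 6 groups of diet and day had 3 poly-A RNA libraries. Levels are FPKM, and a library held between 33630304 and 39398922 fragments counted on genes.

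AMH is a secreted hormone of the TGF-beta family. In the ovary it is made by the granulosa cells of growing follicles, from the primary stage to the small antral stage, and resting primordial follicles make little of it. In mice, loss of Amh lets more primordial follicles leave the resting pool, so the hormone acts as a brake on recruitment. The precursor is cut by proprotein convertases, and the hormone then binds AMHR2, a type II receptor with no other known ligand. AMHR2 pairs with a type I receptor of the BMP group, and the pair phosphorylates SMAD1, SMAD5 and SMAD9, which raise the Id genes in many cells.

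Maternal diet went with a higher Amh level in the F1 ovary at Pd3. Amhr2 stayed within a narrow range in all 6 groups and was not called between the diets on any day. At Pd7 the Amh means differed in the same direction without passing the test, and at Pd21 the 2 diets had similar levels of both genes. In bulk ovary, fewer cells of a type and less RNA per cell cannot be told apart. The labels do not state whether libraries are separate pups, litters or pools, so the p-values measure only the spread between these samples.

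Amh lies on chromosome 10 of GRCm38 at 80805243-80807648 on the plus strand (ENSMUSG00000035262.5), with 5 exons in 1 transcript of 1670 bases, of which 1662 are coding. Its level spanned 141-fold over the 18 libraries, from 1.65 to 233 FPKM. Among the 6 groups the lowest was F1-Control at Pd3, with a median rank of 11366 among 30172 genes, and the highest was F1-Control at Pd21, with a median rank of 231. In descending order of the means came F1-Control Pd21, F1-HHcy Pd21, F1-HHcy Pd7, F1-HHcy Pd3, F1-Control Pd7 and F1-Control Pd3. Next to each other in this order, the libraries overlapped except between F1-HHcy Pd21 and F1-HHcy Pd7 and between F1-Control Pd7 and F1-Control Pd3. The F1-HHcy libraries of Pd3 and the F1-Control libraries of Pd7 overlapped, with means of 48.2 and 40.1 FPKM, although F1-HHcy replicate 3 lay below every control of Pd7.

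**Figure D1:**
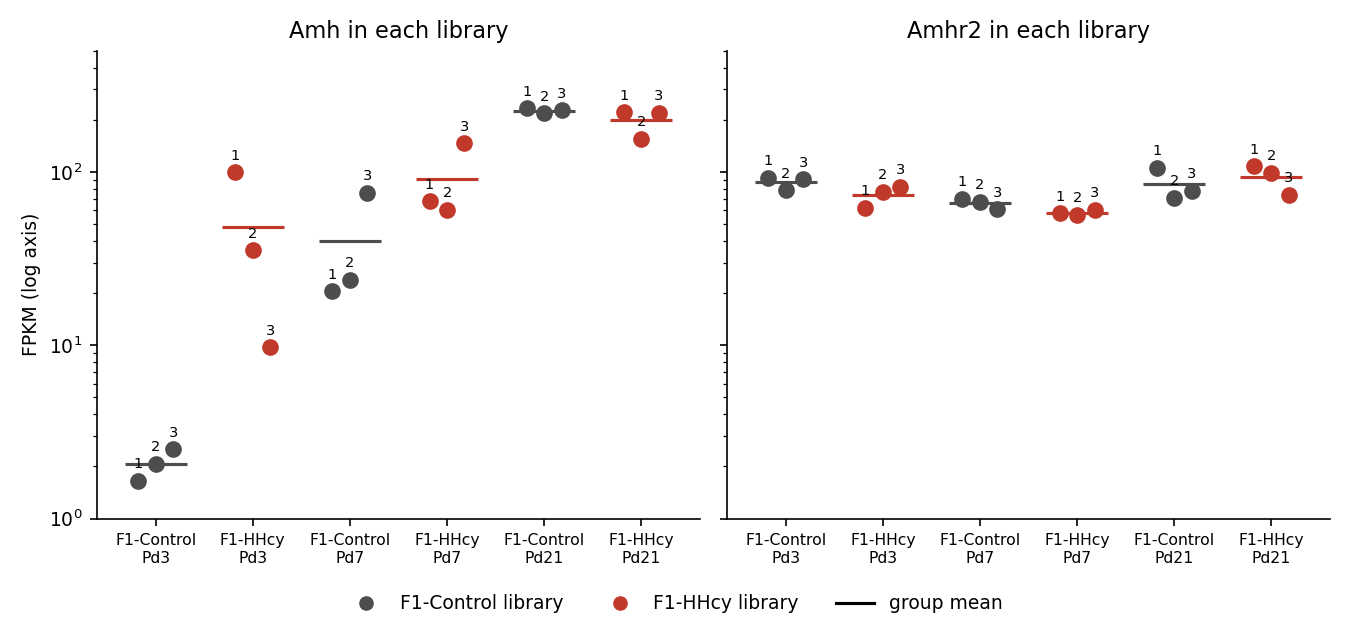
Level of Amh (left) and Amhr2 (right) in FPKM on a log axis, by diet and day; points are libraries numbered by replicate and lines are group means. Amh is near 2 FPKM in F1-Control at Pd3 (mean 2.08) and 48.2 FPKM in F1-HHcy at Pd3, while every Amhr2 point lies between 56.8 and 108 FPKM.

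At Pd3 Amh was nearly silent in F1-Control ovaries and clearly present in all F1-HHcy ovaries. Because AMH marks follicles that have begun to grow, a low level is the usual state of an ovary in which most follicles are still primordial. The F1-Control libraries, in the order of replicates 1 to 3, held 1.65, 2.08 and 2.51 FPKM, which are 99, 127 and 150 fragments. The F1-HHcy libraries held 99.7, 35.2 and 9.72 FPKM, from 6157, 2152 and 571 fragments. All 3 F1-HHcy libraries lay above all 3 F1-Control libraries, but they differed 10.3-fold among themselves, against 1.52-fold in F1-Control. Mean Amh rose from 2.08 ± 0.428 to 48.2 ± 46.4 FPKM (mean ± SD, n = 3; log2 fold change 3.47, SE 0.69, 95% confidence interval 1.86 to 5.09, adjusted p = 0.0453 by limma with Benjamini-Hochberg adjustment). The log2 fold change compares means of log2(FPKM + 1) and is smaller than the ratio of the FPKM means, to which F1-HHcy replicate 1 adds most. Only 2 of the 13277 tested genes had a larger rise that day. The 2-sided exact permutation test gave p = 0.1, the smallest value that 3 libraries against 3 allow.

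This Pd3 call for Amh depended on the settings and on single libraries. Over the 6 alternative settings the Amh log2 fold change ran from 3.47 to 3.99 and its adjusted p by limma from 0.00249 to 0.148, with 3 of the 6 above 0.05. Leaving out F1-Control replicate 1, 2 or 3 gave Amh changes of 3.37, 3.48 and 3.57 with adjusted p of 0.221, 0.182 and 0.140 by limma. Without F1-HHcy replicate 1 the Amh change was 2.69 (adjusted p = 0.0565 by limma) and without F1-HHcy replicate 2 it was 3.43 (adjusted p = 0.127). Only without F1-HHcy replicate 3, the library with the least Amh of its group, did the call hold, at 4.30 with adjusted p = 0.000526 by limma. So the direction and large size of the Amh change did not depend on any library, while its adjusted p did.

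Of the 2 genes, Amh was called higher at Pd3 and Amhr2 was not, against 1.64% of all 13277 tested genes, or 218. Neither gene was called lower by limma, against 1.43%, or 190 genes. The diets did not overlap for 1 of the 2 genes, Amh, against 27.9% of all tested genes. Both totals of genes rested on single libraries as the Amh call did. Without F1-Control replicate 1, 2 or 3 the higher genes numbered 0, 0 and 27, and without F1-HHcy replicate 1, 2 or 3 they numbered 43, 35 and 1219. In the same order of fits the lower genes numbered 0, 1, 26, 41, 49 and 1605.

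By Pd7 Amh was present in every library, and the diets overlapped. This is the day on which many follicles of a mouse ovary have entered the primary stage. F1-Control libraries held 20.5, 23.8 and 76.1 FPKM of Amh, and F1-HHcy libraries held 68.0, 60.5 and 146 FPKM. F1-Control replicate 3 stood apart from its group and reached above F1-HHcy replicates 1 and 2, so only F1-HHcy replicate 3 lay above all controls. Amh means were 40.1 ± 31.2 and 91.6 ± 47.5 FPKM (log2 fold change 1.31, SE 0.47, 95% confidence interval 0.27 to 2.35, adjusted p = 0.0926 by limma with Benjamini-Hochberg adjustment). The exact permutation p for Amh at Pd7 was 0.3. Without F1-Control replicate 3 the Amh change was 1.89 (adjusted p = 0.00585 by limma), and without F1-HHcy replicate 3 it was 0.92. Over the 6 alternative settings the adjusted p of Amh ran from 0.00133 to 0.257 by limma, and 1 of the 6 passed.

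At Pd21 Amh stood at its highest and was alike in the 2 diets. F1-Control libraries held 233, 218 and 226 FPKM of Amh, the tightest group of all with a coefficient of variation of 3.20%. F1-HHcy libraries held 220.2, 156 and 219 FPKM, and F1-HHcy replicate 2 was the only one below all controls. The Amh means were 226 ± 7.23 and 198 ± 36.8 FPKM (log2 fold change -0.20, SE 0.18, 95% confidence interval -0.62 to 0.21, adjusted p = 1.00 by limma). An exact permutation p of 0.3 went with it.

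Neither member was called at Pd7 by limma, where 5.88% of 13299 genes, or 782, were called higher and 5.98%, or 795, lower. Before adjustment Amh had p under 0.05 there, as 4189 genes did. Without F1-Control replicate 2 or F1-HHcy replicate 1, 2 or 3 of Pd7 the higher genes numbered 391, 237, 284 and 307. Without F1-Control replicate 1 or 2 or F1-HHcy replicate 1, 2 or 3 the lower genes numbered 398, 334, 256, 297 and 421. At Pd21 neither Amh nor Amhr2 was called by limma, and their unadjusted p-values were above 0.05. There 0% of the 13350 genes, or 0, were called higher by limma, with 0 also by voom and 38 at an unadjusted p under 0.05, and 2.23%, or 298, were called lower. Leaving out F1-Control replicate 1, 2 or 3 of Pd21 took the lower genes to 10, 119 and 1, and leaving out F1-HHcy replicate 1, 2 or 3 took them to 183, 143 and 184. Without F1-HHcy replicate 3 the higher genes numbered 1. The diets did not overlap for 1 of the 2 genes at Pd7, Amhr2, against 39.0% of all genes, and for 0 of 2 at Pd21, against 10.5%.

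The Amh diet effect was smaller at Pd7 than at Pd3, but this difference did not pass the test over all genes. In the model of all 6 groups the difference of the Amh effect, Pd7 minus Pd3, was -2.16 (SE 0.83, adjusted p = 0.281 by limma). Leaving out F1-HHcy replicate 3 of Pd3 took it to -2.99 with adjusted p = 0.0258. Pd21 minus Pd7 was -1.51 for Amh (SE 0.83, adjusted p = 0.325 by limma). Of the 2 genes, 0 were called by limma for either difference, against 0.411% of 14607 genes for Pd7 minus Pd3 and 3.89% for Pd21 minus Pd7, and Amh alone had an unadjusted p under 0.05, for the first.

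With age, Amh climbed at both steps in F1-Control ovaries, whereas in F1-HHcy ovaries neither step was called. Between Pd3 and Pd7 Amh rose in F1-Control (log2 fold change 3.50, SE 0.59, 95% confidence interval 2.26 to 4.74, adjusted p = 0.00194 by limma). The same step in F1-HHcy gave 1.33 for Amh (SE 0.59, adjusted p = 0.182), starting from the higher Pd3 level. From Pd7 to Pd21 Amh rose in F1-Control by 2.72 (95% confidence interval 1.48 to 3.96, adjusted p = 0.00280 by limma), against 1.20 in F1-HHcy (adjusted p = 0.154). The tests of these unequal slopes are the differences of the diet effect just given, and neither passed. The labels place Pd21 in another batch than Pd3 and Pd7, so age and batch cannot be told apart in the later step. Without F1-HHcy replicate 1 of Pd3 the first F1-HHcy step for Amh was 2.12 with adjusted p = 0.0124 by limma.

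Amhr2 lies on chromosome 15 of GRCm38 at 102445367-102454633 on the plus strand (ENSMUSG00000023047.11), with 11 exons in its main transcript. This transcript has 1938 bases, 1704 of them coding, and 4 of the 5 transcripts of Amhr2 are coding. The 250 bases before its start, chr15:102445117-102445366 on the plus strand of GRCm38.p6 (RefSeq), are printed 5' to 3' with capitals where a searched motif matches. The RefSeq span of Amhr2 begins earlier, at 102445002, so this window lies within that span.

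Amhr2 promoter: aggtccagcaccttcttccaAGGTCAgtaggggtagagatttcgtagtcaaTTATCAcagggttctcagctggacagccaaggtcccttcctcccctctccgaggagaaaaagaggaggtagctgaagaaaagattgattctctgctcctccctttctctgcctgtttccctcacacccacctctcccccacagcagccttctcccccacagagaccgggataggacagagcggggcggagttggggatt

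The Amhr2 window held 1 match to AGGTCA, the half-site of the nuclear receptor NR5A1, at 230 to 225 bases before the start, as did 14.0% of 32851 promoter windows searched on both strands. A GATA site, meaning GATA after A or T and before A or G, occurred once on the minus strand, at 199 to 194 bases before the start, and 26.5% of all windows held one. No match to the SOX letters AACAAT was present, against 9.42% of windows with one. GC made up 55.2% of the Amhr2 window, against a median of 52.4%. These matches describe letters and say nothing of binding. A window for Amh was not among the sequences at hand.

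Amhr2 was a steady gene beside its ligand. Receptor RNA is found in granulosa cells and in the mesenchyme around them, and is present before follicles grow. Its level ran only 1.89-fold, from 56.8 to 108 FPKM, over the 18 libraries, and the SD of its log2 level was 0.29 against 2.26 for Amh. The order of the Amhr2 means was F1-HHcy Pd21, F1-Control Pd3, F1-Control Pd21, F1-HHcy Pd3, F1-Control Pd7 and F1-HHcy Pd7, and only the last 2 neighbours did not overlap.

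At Pd3 the 2 diets overlapped for Amhr2, with the F1-HHcy values on the low side. F1-Control libraries held 92.6, 78.6 and 90.5 FPKM of Amhr2 and F1-HHcy libraries 62.2, 76.9 and 82.3 FPKM. The means were 87.2 ± 7.54 and 73.8 ± 10.4 FPKM (log2 fold change -0.24, SE 0.13, 95% confidence interval -0.55 to 0.066, adjusted p = 0.319 by limma), with an exact permutation p of 0.2.

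At Pd7 all 3 F1-HHcy libraries had less Amhr2 than every control, although the gap was small. F1-Control libraries held 70.1, 67.3 and 60.9 FPKM of Amhr2 and F1-HHcy libraries 57.9, 56.8 and 60.3 FPKM. The means were 66.1 ± 4.74 and 58.3 ± 1.81 FPKM (log2 fold change -0.18, SE 0.13, 95% confidence interval -0.47 to 0.12, adjusted p = 0.383 by limma), with an exact permutation p of 0.1. At Pd21 the Amhr2 libraries of the diets mixed, with 105, 71.1 and 78.0 FPKM in F1-Control and 108, 98.7 and 73.9 FPKM in F1-HHcy. The Amhr2 means were 84.8 ± 18.2 and 93.4 ± 17.5 FPKM (log2 fold change 0.14, SE 0.20, 95% confidence interval -0.33 to 0.61, adjusted p = 1.00 by limma), with an exact permutation p of 0.7.

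Between the days Amhr2 moved little, and 1 step was called. From Pd7 to Pd21 Amhr2 rose in F1-HHcy by a log2 fold change of 0.65 (95% confidence interval 0.31 to 0.99, adjusted p = 0.0128 by limma), a step that also spans the 2 batches. Without F1-HHcy replicate 1 or 2 of Pd7 it was 0.65 and 0.63 with adjusted p of 0.0533 and 0.0657 by limma. In F1-Control the same Amhr2 step was 0.34 (adjusted p = 0.123 by limma), and the 2 steps differed by 0.32 (adjusted p = 0.456), so no difference between the diets was shown. Pd3 to Pd7 gave Amhr2 -0.39 in F1-Control (adjusted p = 0.120 by limma) and -0.33 in F1-HHcy (adjusted p = 0.236), which differed by 0.069 (adjusted p = 0.911). Of the 2 genes, 1 was called from Pd3 to Pd7 in F1-Control, Amh, against 11.4% of 14607 genes, and 0 in F1-HHcy by limma, against 5.48%. From Pd7 to Pd21 Amh was again 1 of 2 in F1-Control, against 30.3%, and Amhr2 was 1 of 2 in F1-HHcy, against 19.6%.

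**Figure D2:**
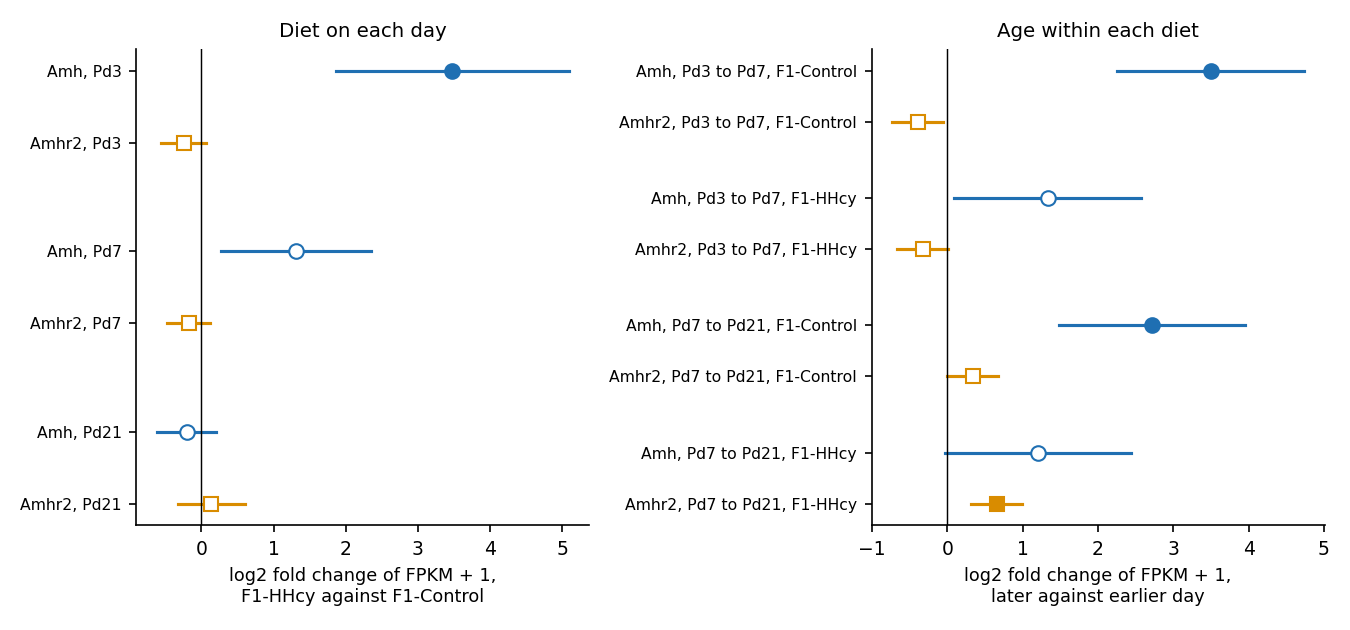
Log2 fold changes of Amh (circles) and Amhr2 (squares) between the diets on each day (left) and between days within a diet (right); lines are 95% confidence intervals and filled points have adjusted p under 0.05. Amh stands at 3.47 at Pd3 and -0.20 at Pd21, while no diet effect of Amhr2 exceeds 0.24 in size.

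Ligand RNA per receptor RNA followed Amh, because Amhr2 varied so little. Amh per Amhr2 was 0.0178, 0.0264 and 0.0277 in the F1-Control libraries at Pd3 and 1.60, 0.458 and 0.118 in the F1-HHcy libraries. At Pd7 it was 0.292, 0.354 and 1.25 in F1-Control and 1.17, 1.07 and 2.42 in F1-HHcy. By Pd21 every library held more Amh than Amhr2, with 2.21, 3.07 and 2.90 in F1-Control and 2.05, 1.58 and 2.96 in F1-HHcy. The log2 ratio of Amh to Amhr2 differed between the diets by 3.72 at Pd3 (exact permutation p = 0.1), 1.48 at Pd7 (p = 0.3) and -0.34 at Pd21 (p = 0.3).

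Amh was also set against 2 other granulosa genes, Foxl2, present from early on, and Fshr, which comes up as follicles grow. Relative to Foxl2 the Amh difference at Pd3 was 3.37 (exact permutation p = 0.1), and relative to Fshr it was 1.93 (p = 0.1). Fshr is near 0 in F1-Control at Pd3, and with a pseudocount of 0.1 in place of 1 the Amh difference relative to it was 1.06. So Amh differed more than Foxl2 or Fshr under both choices. At Pd7 the Amh differences were 0.97 relative to Foxl2 and 0.15 relative to Fshr, and at Pd21 they were -0.33 and -0.027. Amhr2 relative to Foxl2 differed by -0.35 at Pd3, -0.52 at Pd7 and 0.017 at Pd21, with exact permutation p of 0.2, 0.2 and 1. The smallest adjusted p over these 12 ratios, by Benjamini-Hochberg, was 0.4.

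At Pd3, with Amh higher, none of the type I receptors or SMADs downstream of AMHR2 was called by limma. The type I receptors Acvr1, Bmpr1a and Bmpr1b are the partners that carry the AMH signal into the cell. At Pd3 0 of these 3 were called by limma and their median log2 fold change was 0.18, against -0.031 for all tested genes. Bmpr1a, the most abundant of them, held 33.4, 35.2 and 33.5 FPKM in F1-Control and 33.6, 35.9 and 35.3 FPKM in F1-HHcy that day. At Pd7 1 of 3 was called higher, against 5.88% of all genes, with a list median of 0.26 against -0.0015. At Pd21 0 of 3 were called by limma, with a median of 0.12 against -0.011. The called one, Bmpr1b, rose from 4.37 to 9.99 FPKM at Pd7 (log2 fold change 1.03, SE 0.19, adjusted p = 0.00984 by limma), and the call held in all 6 fits that left out 1 library. The 4 other type II receptors had medians of 0.11, 0.36 and 0.045 on the 3 days and 0 calls by limma at Pd7 and Pd21. At Pd3 1 of the 4 was called higher, against 1.64% of all tested genes. That gene, Tgfbr2, rose from 7.68 ± 0.481 to 12.8 ± 1.34 FPKM (log2 fold change 0.66, SE 0.12, adjusted p = 0.0362 by limma). The call was lost without F1-Control replicate 1, 2 or 3, at 0.61, 0.68 and 0.69, and without F1-HHcy replicate 1 or 2, at 0.59 and 0.66.

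SMAD genes of this branch, 5 of 6 tested, had 0 calls by limma on any day and medians of 0.20, 0.14 and -0.089. Smad5, the most abundant, held between 20.2 and 31.9 FPKM in every library, so the RNA for the transducer of the AMH signal was present in every group. Id genes are common targets of SMAD1, SMAD5 and SMAD9, and BMPs raise them as AMH does. All 4 Id genes had positive changes at Pd3, with a median of 0.39, but 0 were called by limma. Id3 came nearest, with 55.3 ± 8.40 FPKM in F1-Control, 108 ± 26.5 FPKM in F1-HHcy and adjusted p = 0.0510 by limma. Its diets did not overlap, as for 27.9% of all tested genes. At Pd7 Id3 alone was called higher, rising from 86.7 to 139 FPKM (log2 fold change 0.66, SE 0.16, adjusted p = 0.0295 by limma; list median 0.19). This call was lost without F1-Control replicate 1 or 2 or any F1-HHcy library, where the values were 0.63, 0.68, 0.77, 0.68 and 0.53. At Pd21 all 4 had negative changes, with a median of -0.31, and Id4 fell from 6.20 ± 2.66 to 1.83 ± 0.354 FPKM (log2 fold change -1.29, SE 0.26, adjusted p = 0.0423 by limma). The Id4 call was lost in all 6 fits that left out 1 library, with values from -1.44 to -1.01. The Id sum at Pd3 was 161, 178 and 155 FPKM in F1-Control and 231, 198 and 343 FPKM in F1-HHcy, so every F1-HHcy library lay above every control, as for Amh, with the largest sum in the library that had the least Amh of its group.

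Convertases cut the AMH precursor into the form that binds AMHR2. The 3 tested, Furin, Pcsk5 and Pcsk6, had medians of -0.094, 0.13 and -0.18 on the 3 days, with 0 calls by limma at Pd3 and Pd21. At Pd7 Pcsk6 fell from 94.6 to 57.5 FPKM (log2 fold change -0.71, SE 0.13, adjusted p = 0.0114 by limma). Without F1-HHcy replicate 1 or 2 it was -0.73 and -0.66 and not called, and the call was also lost in the model of all 18 libraries (adjusted p = 0.153 by limma; 0.0129 to 0.153 over the alternatives).

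**Figure D3:**
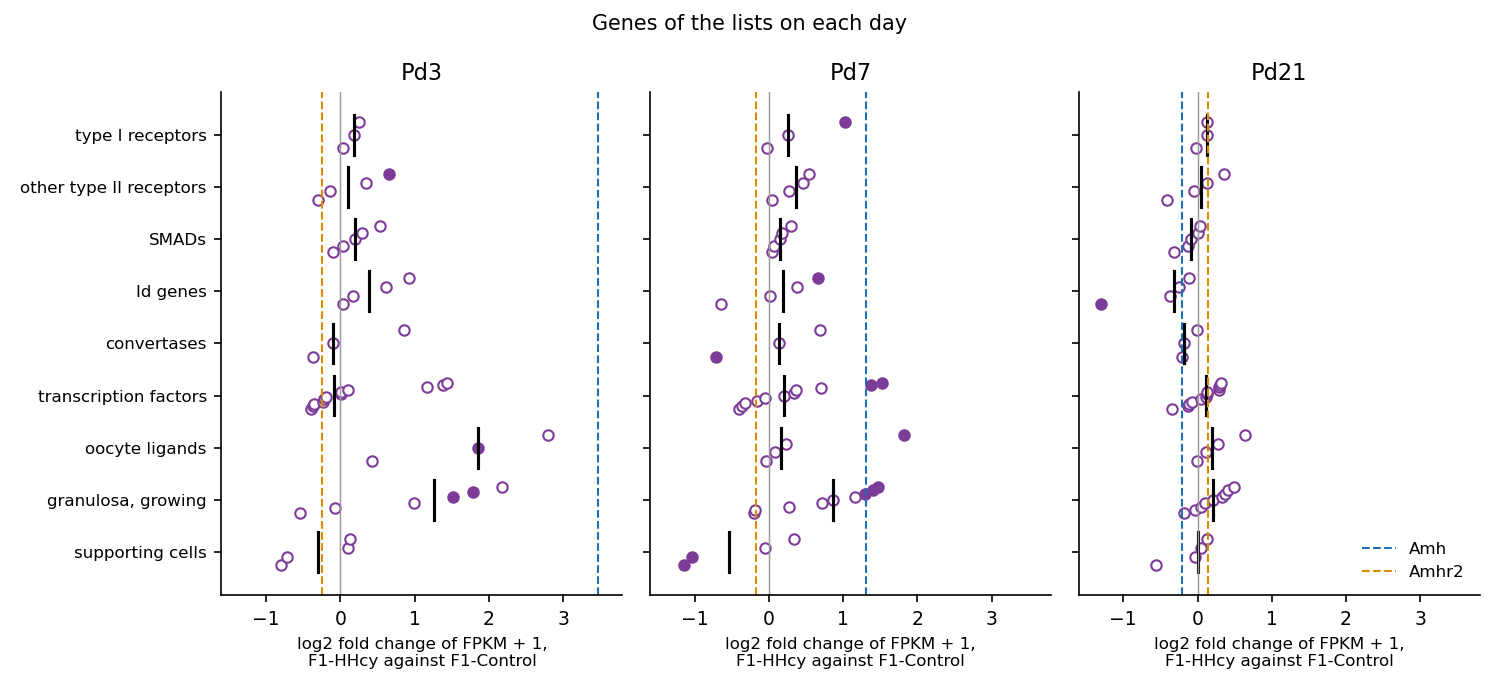
Log2 fold changes between the diets at Pd3, Pd7 and Pd21 for the genes of 9 lists; points are genes, filled where adjusted p is under 0.05, black bars are list medians and dashed lines mark Amh and Amhr2. At Pd3 Amh, at 3.47, lies above the medians of the oocyte ligands (1.85) and of the granulosa genes of growing follicles (1.26).

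Upstream, the transcription factors known to act on the Amh or Amhr2 promoter were not called at Pd3. All 12 were tested that day, with 0 calls by limma and a median of -0.091. Wt1, the most abundant, held 147, 172 and 136 FPKM in F1-Control at Pd3 and 94.0, 111 and 153 FPKM in F1-HHcy, and Foxl2 held 59.0, 56.8 and 51.4 against 66.0, 57.8 and 56.1 FPKM. Sox9, the switch of Amh in the fetal testis, stayed between 0.426 and 3.09 FPKM in every library, and Dmrt1, another testis gene, between 0 and 0.138 FPKM. At Pd7 2 of 11 were called higher, against 5.88% of all genes, and the median was 0.20. At Pd21 0 of 12 were called by limma, with a median of 0.12. Nr5a2, whose product reads the same half-site as NR5A1, rose from 24.8 to 68.3 FPKM at Pd7 (log2 fold change 1.52, SE 0.39, adjusted p = 0.0363 by limma). Its libraries, 14.8, 16.0 and 43.6 FPKM in F1-Control and 53.8, 48.9 and 102 FPKM in F1-HHcy, had F1-Control replicate 3 and F1-HHcy replicate 3 highest in their groups, as for Amh. Without F1-Control replicate 1 or 2 or F1-HHcy replicate 1 or 3 the Nr5a2 call was lost, at 1.25, 1.30, 1.65 and 1.19. Esr2, the estrogen receptor of granulosa cells, rose from 19.9 to 51.6 FPKM at Pd7 (log2 fold change 1.37, SE 0.22, adjusted p = 0.00669 by limma), a call kept in all 6 fits that left out 1 library. GATA4, a reader of the GATA motif, had a mean RNA level of 74.6 FPKM in F1-Control and 64.3 FPKM in F1-HHcy at Pd3 and was not called.

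Oocyte ligands act on the granulosa cells that make AMH, and at Pd3 1 of them, Gdf9, was called higher as Amh was. The 3 tested had a median of 1.85, against -0.031 for all tested genes, of which 1.64% were called higher. The libraries of the diets overlapped for Bmp6. The most abundant, Gdf9, rose from 40.3 to 156 FPKM at Pd3 (log2 fold change 1.85, SE 0.34, adjusted p = 0.0388 by limma), with 33.5, 35.0 and 52.3 FPKM in F1-Control and 215, 168 and 83.9 FPKM in F1-HHcy, the same descending order of F1-HHcy libraries as Amh. The Gdf9 call was lost without F1-Control replicate 1, 2 or 3, at 1.74, 1.77 and 2.05, and without F1-HHcy replicate 1 or 2, at 1.57 and 1.75. The list summed to 42.5, 46.9 and 62.9 FPKM in F1-Control and 264, 204 and 98.6 FPKM in F1-HHcy at Pd3. At Pd7 1 of 4 was called higher, against 5.88% of all genes, and the list median was 0.16. This gene, Bmp15, rose from 18.5 to 65.8 FPKM (log2 fold change 1.82, SE 0.23, adjusted p = 0.00300 by limma). At Pd21 0 of 4 were called by limma, with a median of 0.19.

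Among the granulosa genes of growing follicles, the cells in which Amh is made, some were higher with Amh at Pd3. Of 6 tested, 4 had positive and 2 negative changes, and 2 were called higher, against 1.64% of all tested genes. The median was 1.26, against 3.47 for Amh and -0.031 for all tested genes. Inha, the inhibin subunit made by the same cells, rose from 34.6 ± 0.464 to 132 ± 69.6 FPKM (log2 fold change 1.78, SE 0.31, adjusted p = 0.0338 by limma), with 34.2, 35.1 and 34.6 FPKM in F1-Control and 211, 106 and 79.9 FPKM in F1-HHcy. Without F1-Control replicate 1, 2 or 3 or F1-HHcy replicate 2 the Inha call was lost, at 1.77, 1.79, 1.78 and 1.88. Gja1, the gap junction gene, rose from 41.6 to 129 FPKM (log2 fold change 1.52, SE 0.31, adjusted p = 0.0480 by limma), a call lost without F1-Control replicate 1, 2 or 3 (1.44, 1.48, 1.64) or F1-HHcy replicate 1 or 2 (1.18, 1.52). Over the 6 alternative settings the adjusted p of Gja1 at Pd3 ran from 0.0462 to 0.149 by limma, above 0.05 in 4 of the 6, among them with median-ratio scaling (0.0508) and in the model of all 18 libraries (0.0504). The list summed to 178, 182 and 191 FPKM in F1-Control at Pd3 and 529, 377 and 246 FPKM in F1-HHcy, with Kitl most abundant in F1-Control. Kitl itself went the other way without being called, from 60.2 ± 5.82 to 40.9 ± 5.35 FPKM (adjusted p = 0.0642 by limma). All its F1-HHcy libraries lay below all controls, and 27.9% of all tested genes had no overlap at Pd3. Fshr, a defining gene of growing follicles, was near 0 in F1-Control at Pd3, with 0.132, 0.177 and 0.495 FPKM, and reached 7.21, 2.79 and 0.590 FPKM in F1-HHcy.

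At Pd7, where Amh was not called, 3 of 9 granulosa genes were called higher, Inha, Inhba and Gja1, against 5.88% of all genes. The list median was 0.86, against -0.0015 for all genes. At Pd21 0 of 9 were called by limma, with a median of 0.21. The Inha call at Pd7 was lost without F1-Control replicate 1 or 2 (1.02, 1.27) or F1-HHcy replicate 1, 2 or 3 (1.53, 1.52, 1.15), and also in 4 of the 6 alternative settings. The Gja1 call at Pd7 was lost without F1-Control replicate 1 or 2 (1.13, 1.19) or F1-HHcy replicate 3 (1.03), and in the model of all 18 libraries (adjusted p = 0.0636 by limma; 0.000824 to 0.108 over the alternatives). Inhba rose from 0.926 to 4.33 FPKM at Pd7 (log2 fold change 1.47, SE 0.16, adjusted p = 0.00138 by limma), a call kept in all 6 fits that left out 1 library but lost in the model of all 18 libraries (adjusted p = 0.0930; 0.000602 to 0.0930 over the alternatives). Its F1-Control libraries held 1.11, 0.947 and 0.722 FPKM. Inhba thus passed the filter on low values only through F1-HHcy, so its call is no separate evidence. The 4 supporting cell genes, which mark cells before growth and include Foxl2, had 0 calls by limma at Pd3 and Pd21. At Pd7 2 of the 4, Rspo1 and Lgr5, were called lower, against 5.98% of all genes. The list medians on the 3 days were -0.31, -0.54 and 0.0055. Of the 6 fits with 1 library left out, Rspo1 kept its call in 2 and Lgr5 in 3. At Pd3 Rspo1 went from 60.9 to 37.8 FPKM (log2 fold change -0.72) and Lgr5 from 33.3 to 19.7 FPKM (-0.80). Neither was called at Pd3. Their diets did not overlap, as for 27.9% of all tested genes. Foxl2 (0.10) and Wnt4 (0.13) had small positive changes that day, with overlap. Thus at Pd3 Amh was called together with Inha and Gja1, while Amhr2 and the 4 supporting cell genes, Foxl2 among them, were not called.

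Markers of some other cell types of the ovary also differed between the libraries in which Amh differed at Pd3. Theca and stroma markers had 3 of 7 tested genes called higher at Pd3, against 1.64% of all tested genes. Their median was 1.06, against -0.031 for all tested genes. The called one with the smallest p, Pdgfra, kept its call in 4 of the 6 fits with 1 library left out. The list summed to 195, 206 and 252 FPKM in F1-Control against 969, 556 and 249 FPKM in F1-HHcy, with Hsd3b1 most abundant except in F1-HHcy replicate 3. Oocyte markers had 1 of 9 called higher, Zp3, a call kept in 1 of the 6 fits with 1 library left out. Of the 9, 7 had negative changes, 4 of them with no overlap, and 2 had positive changes, both with no overlap. Among all tested genes 27.9% had no overlap. The median of the oocyte markers was -0.71. Their sums, with Zp2 most abundant, were 743, 813 and 942 FPKM against 994, 1441 and 1121 FPKM. Surface epithelium markers had 0 of 5 called by limma, a median of -0.58 and sums of 572, 642 and 609 FPKM against 426, 680.2 and 418 FPKM. Oviduct and uterus markers (3 tested) and Sertoli and testis markers (2 tested) had 0 calls by limma at Pd3 and medians of -0.037 and -0.16. Their part in the Amh result was not tested.

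At Pd7, where Amh was not called, 7 of 9 theca and stroma markers were called higher (median 0.84) and 7 of 9 oocyte markers lower (median -1.16). Among all genes 5.88% were called higher and 5.98% lower that day, with a median of -0.0015. Surface epithelium markers had 4 of 5 called lower (median -1.43), and of 5 blood, immune and vessel markers 1 was lower, Alas2 (median -0.23), kept in 2 of the 6 fits with 1 library left out. Sertoli and testis markers had 1 higher and 1 lower of 4 (median 0.35), and oviduct and uterus markers 1 lower of 2 (median 0.091). The higher one, Insl3, was under 1 FPKM in all F1-Control libraries of Pd7. It passed the filter on low values only through F1-HHcy, so its call is no separate evidence. At Pd21, where neither Amh nor Amhr2 was called, 3 of 7 oviduct and uterus markers passed the filter on low values, Foxj1 and Pax8 only through the F1-Control libraries, in which they are high, so their lower calls are no separate evidence. The 7 summed to 325, 62.2 and 434 FPKM in F1-Control at Pd21 and 3.86, 1.99 and 3.06 FPKM in F1-HHcy, with Ovgp1 most abundant in F1-Control. Such tissue lies beside the ovary, and how much of it each library held was not tested for its part in the Pd21 levels of Amh and Amhr2. Surface epithelium markers had 1 of 5 called lower at Pd21, Krt18, against 2.23% of all genes (list median -1.33). This call was kept in 1 of the 6 fits with 1 library left out. Theca and stroma markers (9 tested), oocyte markers (9), Sertoli and testis markers (3) and blood, immune and vessel markers (4) had 0 calls by limma at Pd21 and medians of -0.066, 0.024, -0.34 and -0.089.

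**Figure D4:**
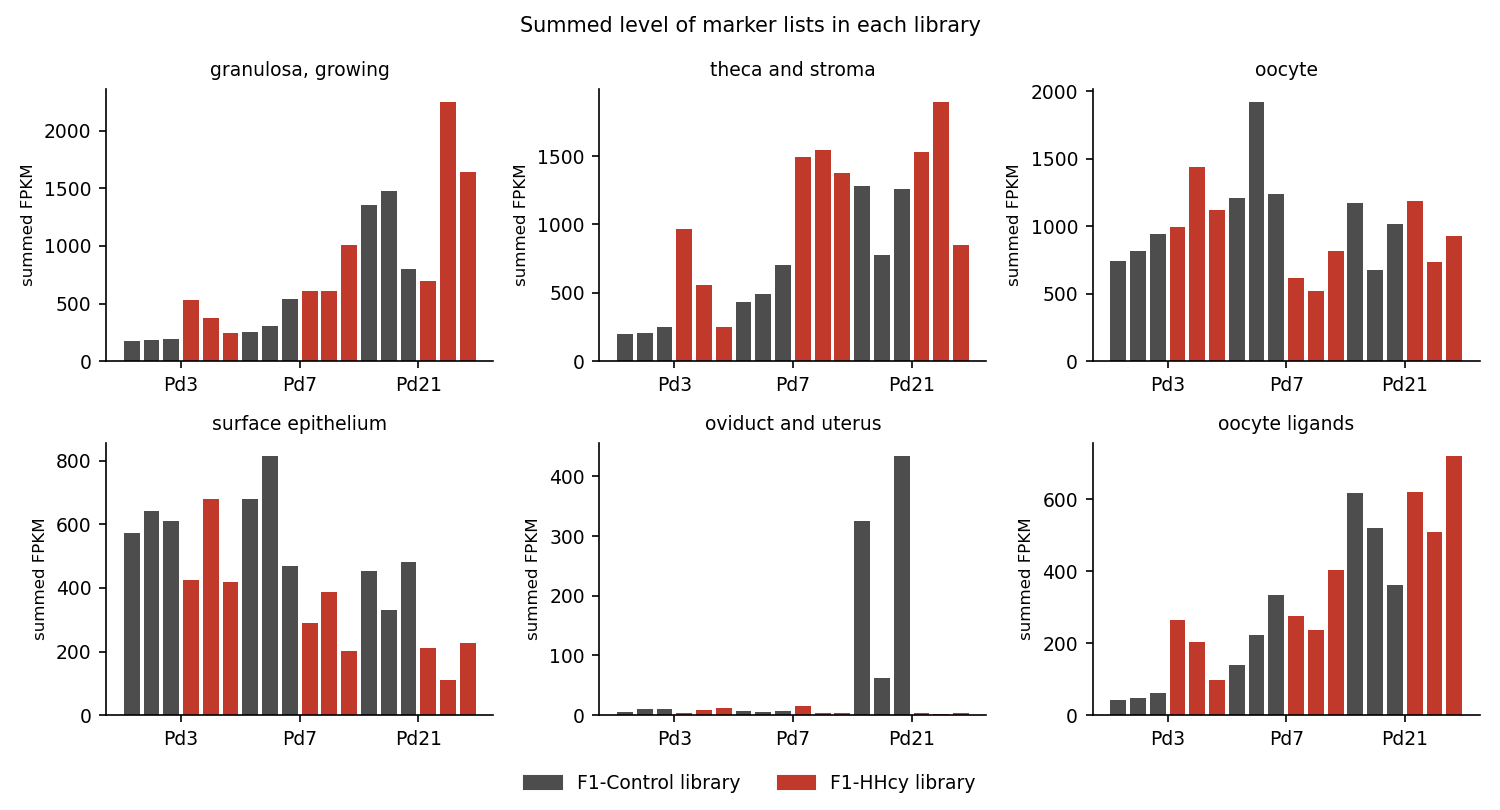
Summed FPKM of 6 lists in each of the 18 libraries, one bar per library, grey for F1-Control and red for F1-HHcy, from Pd3 to Pd21. The granulosa genes reach 529, 377 and 246 FPKM in F1-HHcy at Pd3, above the 178 to 191 FPKM of F1-Control, and the oviduct and uterus markers peak at 434 FPKM in F1-Control at Pd21.

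Over the 18 libraries the gene whose log2 profile lay nearest to that of Amh was Cpa1, at a root mean square distance of 0.50 among 14606 genes. Gm1965 (0.50), Bmp15 (0.55), Ftdc1 (0.58) and Nlrp9b (0.60) followed. Bmp15 and Nlrp9b are expressed in oocytes, so the profile of this granulosa gene was matched by genes of the neighbouring cell as well. At Pd3 Cpa1, Gm1965 and Nlrp9b were under 1 FPKM in all F1-Control libraries and passed the filter on low values only through F1-HHcy, so their calls that day are not counted. Of the 5, Bmp15, Ftdc1 and Nlrp9b were called higher at Pd7 and 0 at Pd21 by limma, where none had an unadjusted p under 0.05. Among the genes of the lists, Hsd17b1 came 22nd nearest to Amh, Inha 41st, Nr5a2 52nd and Gdf9 68th. Amhr2 was at a distance of 2.24 from Amh, with a correlation of -0.097 (n = 18, a description only), so ligand and receptor did not share a profile. Nearest to Amhr2 were Ttc39c (0.14), Lrfn1 (0.14), Vps37b (0.15), Srrd (0.15) and 2510039O18Rik (0.15). Their Pearson r with Amhr2, in the same order, was 0.860, 0.859, 0.859, 0.845 and 0.846. None of these 5 was called on any day by limma, although Ttc39c, Vps37b, Srrd and 2510039O18Rik had unadjusted p under 0.05 at Pd3 and Srrd at Pd7.

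**Figure D5:**
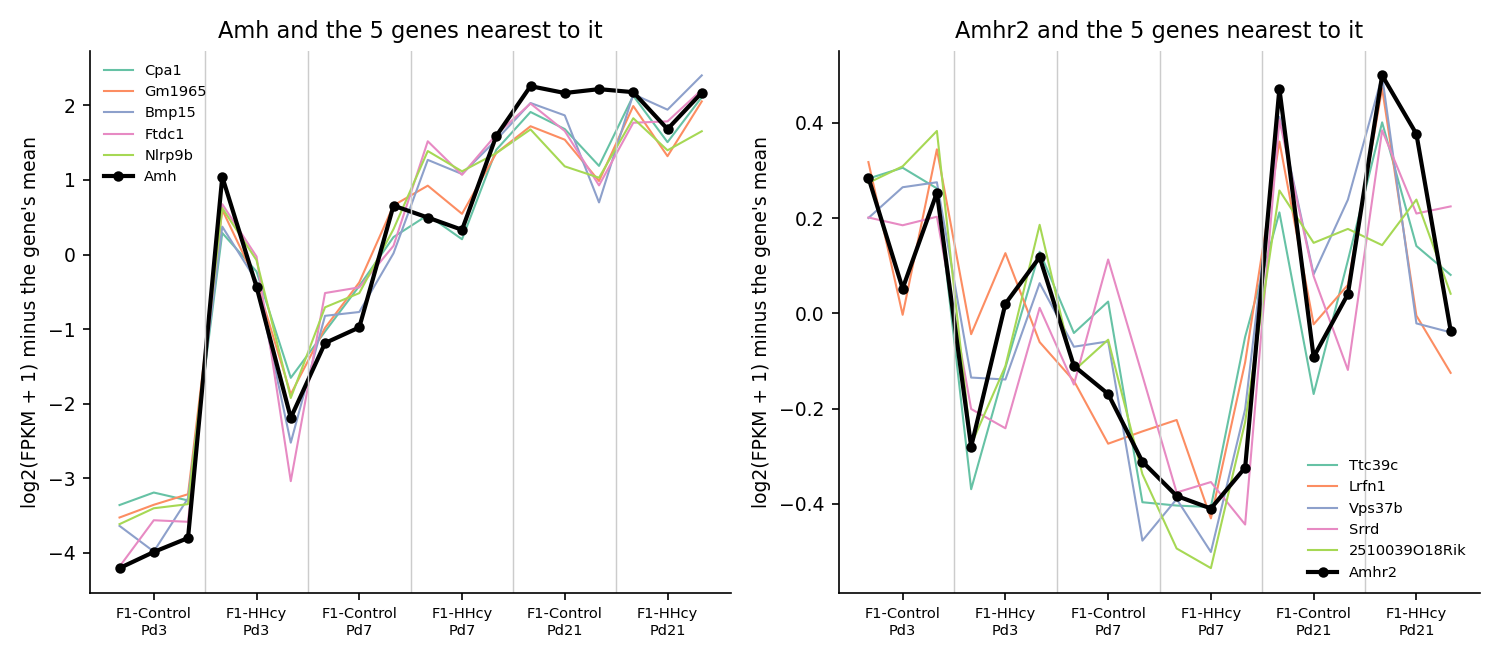
Centred log2(FPKM + 1) over the 18 libraries for Amh with its 5 nearest genes and for Amhr2 with its 5 nearest genes; each line is a gene. The Amh profile spans far more (SD 2.26) than that of Amhr2 (SD 0.29).

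None of the genes beside Amh on the chromosome was called at Pd3. Sf3a2 ends 318 bases before Amh on the same strand and held 36.0 ± 2.85 FPKM in F1-Control and 30.1 ± 2.33 FPKM in F1-HHcy at Pd3 (adjusted p = 0.225 by limma). Jsrp1, 847 bases after Amh on the opposite strand, held 0.517 ± 0.284 and 2.02 ± 0.717 FPKM at Pd3 (adjusted p = 0.0598 by limma). No annotated gene overlapped Amh or Amhr2. Sp1, 8962 bases before Amhr2, held 17.1 ± 1.05 and 21.4 ± 1.39 FPKM at Pd3 (adjusted p = 0.143 by limma), and the other neighbours of Amhr2 were not in the files.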

How the data were processed

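The values deposited by the authors carry no named unit and were read as FPKM because they returned whole fragments, within 0.02, for 27294 of 27294 genes above 0 in at least 3 libraries. The authors name FastQC 0.11.9, Trimmomatic 0.39, STAR 2.7.9a, featureCounts 2.0.1, Subread and DESeq2 1.36.0, with GRCm38. The labels give 4 weeks of diet before mating, whereas the paper's methods give a longer feeding period, and the labels are used here. They place the Pd21 libraries in a batch of their own.

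Diets were compared on each day with limma 3.58.1 in R 4.3.3, with a mean-variance trend on log2(FPKM + 1), among genes of 1 FPKM or more in 3 or more of the 6 libraries. Adjusted p is by Benjamini-Hochberg over all genes of a test, and a gene was called with adjusted p under 0.05. Changes with age and differences of the diet effect came from 1 limma model of the 6 groups on 18 libraries. Single values and log2 ratios were compared by exact permutation, 2-sided. Genes near 1 FPKM have fold changes shrunken by the added 1. The fit was tested on simulated data with the same design. Alternatives were a pseudocount of 0.1, no filter, median-ratio scaling, voom on the recovered fragments, all 18 libraries in 1 model, batch 1 alone, the replicate number as a block, another threshold, Pearson r for likeness, and each library left out in turn.

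Positions are from GENCODE M21. Motifs were counted on both strands. Members and the 15 gene lists were written with earlier results of these data known: type I receptors, other type II receptors, SMADs, Id targets, convertases, transcription factors, oocyte ligands, granulosa genes of growing follicles, supporting cell genes, and markers of theca and stroma, oocytes, Sertoli cells and testis, oviduct and uterus, surface epithelium, and blood, immune cells and vessels. Named genes were drawn from up to 4 called genes per list and day by smallest p, the 3 most abundant per list, the 5 nearest profiles and the chromosomal neighbours. Marker lists are given mainly as counts. Of their called genes, only the one with the smallest p per list and day was refitted under the alternatives and looked up for differences between days. Others (Fshr, Dmrt1, Kitl, Hsd17b1) were named after their values were seen. The list of blood, immune cells and vessels is given for Pd7 and Pd21 only. Python 3.11.15, numpy 2.4.6, pandas 2.3.3, scipy 1.17.1 and matplotlib 3.10.9 made tables and figures.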

Additional observations from a re-analysis of the deposited data

Results flagged for a closer look

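Differences between days were looked up for Amh, Amhr2 and called list genes. From each marker list only the called gene with the smallest p on each day was taken. By limma with Benjamini-Hochberg adjustment, 3 of these list genes had a diet effect that differed between days. The effect on Zp3, called higher at Pd3, differed by -2.14 at Pd7 (SE 0.42, adjusted p = 0.0331). The effect on Sohlh1, called lower at Pd7, differed by 2.53 at Pd21 (SE 0.56, adjusted p = 0.0145). The effect on Foxj1 at Pd21 differed by -4.82 from Pd7 (SE 0.59, adjusted p = 8.54e-05). Foxj1 passed the filter on low values at Pd21 only through F1-Control and did not pass it at Pd7, so its difference is no separate evidence. For Amh and Amhr2 no such difference passed. Groups of 3 libraries were not tested for outliers.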

How the results depend on the processing

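With the low-value filter dropped, Amh at Pd3 kept its change of 3.47 (adjusted p = 0.148 by limma), and called genes numbered 0 higher and 0 lower at Pd3, 62 higher and 29 lower at Pd7 and 37 lower at Pd21. Of the called list genes with a fold change given, only Inhba kept its call there. Sohlh1 also kept its lower call of Pd7, with adjusted p from 0.000106 to 0.0445 by limma over the 6 alternatives. Voom on the recovered fragments gave Amh 3.99 at Pd3 (adjusted p = 0.136; over the alternatives 0.00249 to 0.148) and 118 lower genes. Fitting all 18 libraries in 1 model gave 458 higher and 423 lower genes at Pd3, then 1 higher and 497 lower at Pd21. The other threshold, 0.58 in log2 size at unadjusted p under 0.05, gave 664 higher and 629 lower genes at Pd3, 1205 higher at Pd7, then 11 higher and 675 lower at Pd21. A pseudocount of 0.1 took the ratio of Amh to Fshr to 1.06 at Pd3, -0.081 at Pd7 and 0.0075 at Pd21. By Pearson r, 2 of the 5 nearest genes were shared for Amh and 2 of 5 for Amhr2. Median-ratio scaling and batch 1 alone changed no call of Amh or Amhr2.

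The replicate block was only a check, since the numbers do not pair samples: correlations of 9 same-number pairs ran from -0.31 to 0.085, and 2 of 9 F1-HHcy libraries correlated best with their own number. With the replicate block Amh was 3.47 at Pd3 (adjusted p = 0.120 by limma; alternatives 0.00249 to 0.148) and 1.31 at Pd7 (adjusted p = 0.00133; alternatives 0.00133 to 0.257), and Pd3 had 0 higher and 1 lower genes. Tgfbr2, Gdf9, Inha, Gja1, Zp3 and the theca and stroma marker Pdgfra lost their Pd3 call under the replicate block.

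Across fits with 1 library left out, Amh ran from 2.69 to 4.30 at Pd3 and from 0.92 to 1.89 at Pd7. Its F1-HHcy step to Pd7 ran from 0.50 to 2.12 and its Pd7 minus Pd3 difference from -2.99 to -1.38. The Amhr2 step to Pd21 in F1-HHcy ran from 0.54 to 0.81 and its Pd7 minus Pd3 difference from -0.047 to 0.15. Amh to Fshr ran from -0.55 to 0.56 at Pd7 and from -0.47 to 0.47 at Pd21, and Amhr2 to Foxl2 from -0.34 to 0.31 at Pd21. Higher genes ran from 0 to 1219 at Pd3, 237 to 944 at Pd7 and 0 to 1 at Pd21, and lower genes from 0 to 1605, 256 to 901 and 1 to 184. The cause was not tested.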
